A study of Mus musculus with 6 samples.

Results

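The genes described are 10 G protein-coupled receptors through which macrophages sense complement fragments, formylated peptides, lipid mediators and metabolites: Gpr84, C5ar1, C5ar2, C3ar1, Fpr1, Fpr2, Ptafr, Ltb4r1, Hcar2 and Gpr35. All 10 were found by symbol among the 25044 genes of the count table, and 9 passed the filter on low counts (Ltb4r1 did not). Gpr84 and C5ar1 were chosen because their transcripts fell sharply in the comparison reported here, so their changes are given as a description with no test. The other 8 were listed beside them as receptors of related ligands, with earlier results of these data known.

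The mice were wild-type C57BL/6, 8 weeks old, and their peritoneal macrophages were collected 3 days after intraperitoneal thioglycollate, an irritant that recruits monocytes, so these are elicited cells rather than the resident population. Cells that had adhered for 1 h were kept for 24 h, given DMSO (vehicle) or 100 nM trametinib for 2 h, and then exposed to LPS at 100 ng/ml for 12 h in both groups. Trametinib inhibits MEK1 and MEK2, the kinases that activate ERK, and LPS is a bacterial ligand of Toll-like receptor 4. Each group had 3 libraries of ribosomal-RNA-depleted RNA; the labels name 3 mice and do not say which mouse each library came from. Because all 6 cultures received LPS, the comparison describes trametinib in LPS-treated cells and not the response to LPS.

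These receptors span the membrane many times and couple mainly to inhibitory (Gi) heterotrimeric G proteins, whose beta-gamma subunits activate phospholipase C beta and PI3K gamma and so drive chemotaxis, calcium release and the oxidative burst. C5ar1 and C3ar1 are the receptors of the complement anaphylatoxins C5a and C3a, and C5ar2 is a second C5a receptor that does not couple to G proteins in the usual way. Fpr1 and Fpr2 recognise formylated peptides from bacteria and mitochondria, with Fpr2 also binding several host proteins. Ptafr binds platelet-activating factor, Ltb4r1 leukotriene B4, Gpr84 medium-chain fatty acids, Hcar2 niacin and the ketone body beta-hydroxybutyrate, and Gpr35 has been linked to tryptophan metabolites.

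Upstream sequences are shown for Gpr84 and C5ar1, the receptors with the sharp falls, and for C5ar2 and C3ar1, the anaphylatoxin receptors with smaller changes. They are RefSeq sequences on GRCm38.p6 (the mm10 assembly), read 5′ to 3′ on the strand of the gene, all 4 on the minus strand, and end at the base before the first annotated base of the gene in GENCODE M21. Capitals mark matches to an AP-1 motif (TGANTCA) or an ETS motif (GGAAGT, or its reverse complement). The stretches of Gpr84 and C5ar1 hold none, but they are only 76 and 48 bases long. Those of C5ar2 and C3ar1 are 250 and 246 bases long, so the matches are not compared between them. The stretches lie at chr15:103310613-103310688, chr7:16259541-16259588, chr7:16244155-16244404 and chr6:122856162-122856407.
Gpr84: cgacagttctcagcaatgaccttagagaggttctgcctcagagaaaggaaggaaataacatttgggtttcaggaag
C5ar1: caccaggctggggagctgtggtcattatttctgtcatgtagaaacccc
C5ar2: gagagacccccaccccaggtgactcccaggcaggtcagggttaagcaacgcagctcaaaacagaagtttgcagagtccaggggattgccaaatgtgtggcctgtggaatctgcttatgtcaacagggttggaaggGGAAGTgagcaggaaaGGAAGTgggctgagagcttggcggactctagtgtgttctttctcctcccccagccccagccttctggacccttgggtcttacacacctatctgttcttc
C3ar1: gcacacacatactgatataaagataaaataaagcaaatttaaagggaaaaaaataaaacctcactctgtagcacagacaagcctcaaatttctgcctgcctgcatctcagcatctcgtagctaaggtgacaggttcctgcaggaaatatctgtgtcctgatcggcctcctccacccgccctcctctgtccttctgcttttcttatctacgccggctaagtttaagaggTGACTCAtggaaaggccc

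RefSeq windows of 300 bases, from 250 before to 50 after the start site, were held for 9 of the 10 receptors (all but Hcar2), and 5 motifs were searched in them on both strands. The share of all 32851 such windows with a match was 7.81% for AP-1 (TGANTCA), 23.8% for ETS (GGAAGT), 1.79% for CRE (TGACGTCA), 50.8% for NF-kB (GGG, any 5 bases, CC) and 10.8% for C/EBP (TTGCNNAA). The Gpr84 window held 1 ETS match and the C5ar1 window 2, all of them downstream of the GENCODE start, since the RefSeq start sites lie 174 and 202 bases inside the GENCODE genes. The first C5ar2 window held 2 ETS matches, 2 NF-kB matches and 2 C/EBP matches, and the C3ar1 window held 1 AP-1 match, 22 bases before the start site, and 1 NF-kB match. No match to any of the 5 motifs lay in the windows of Fpr1, Fpr2 and Ptafr. The RefSeq start sites of the 2 Gpr35 windows lie 22254 and 28038 bases inside the GENCODE gene. The second of these windows held 1 AP-1 match. That Gpr35 window also held 2 NF-kB matches, which overlap each other, and the Ltb4r1 window held 1 ETS match; in C5ar2 1 NF-kB match overlaps 1 C/EBP match. The motifs were chosen with the changes known, and a match is a string of letters and not a measured binding site.

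The libraries held 17453778 to 19648467 counts. Vehicle replicate 3 differed from its 2 group mates, at −16.2 on the first principal component (68.8% of the variance) against −39.3 and −38.1, with the trametinib libraries at 26.4 to 35.5. Trametinib replicate 2 held 1.76% mitochondrial counts against 0.717% to 0.871% in the others, and the widest chi-square distance per gene within a group was between it and trametinib replicate 3 (29.8, against 26.8 and 28.1 between vehicle replicate 3 and its group mates). Without it C5ar2 was the only tested receptor to lose its call. The receptor values of vehicle replicate 3 lay nearer to those of the trametinib group than the values of vehicle replicates 1 and 2: it was the lowest vehicle library for all 7 tested receptors with a lower fitted value under trametinib, and the highest for both with a higher one. The labelled cell type was checked with 9 macrophage markers, all tested. Their summed level was 15840 to 17660 CPM (counts brought to a common library size with TMM factors) in vehicle and 14820 to 16460 CPM in trametinib libraries. Lyz2 made up most of each sum, at 8836 to 10524 CPM, so the sums say little of the other markers. Singly, 2 of the 9 were called higher (Mertk and Cd14) and 2 lower (Adgre1 and Itgam) with trametinib. Among all genes tested 15.8% were called higher and 18.4% lower. Neutrophils also carry Fpr1, Fpr2 and C5ar1. The summed level of 10 neutrophil markers was 8.75 to 20.3 CPM in vehicle and 8.68 to 18.3 CPM in trametinib libraries. Mmp8 was the largest part of it in every library, at 5.35 to 14.4 CPM. None of the 3 tested was called, Retnlg was at 0 in all libraries and Ly6g at 0 in all vehicle libraries. The lowest sum in each group was that of the library numbered 3. The same held for the summed macrophage, large peritoneal macrophage, B cell and dendritic cell markers, but not for the other marker lists. Large peritoneal macrophage sums, mostly Cd5l, were 255.6, 390.1 and 132.6 CPM in vehicle replicates 1, 2 and 3. In trametinib replicates 1, 2 and 3 they were 377.4, 566.7 and 204.1 CPM. Whether such sums have a part in the receptor values of the libraries numbered 3 was not tested. In such bulk samples fewer cells of a type and less RNA per cell cannot be told apart.

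**Figure D1:**
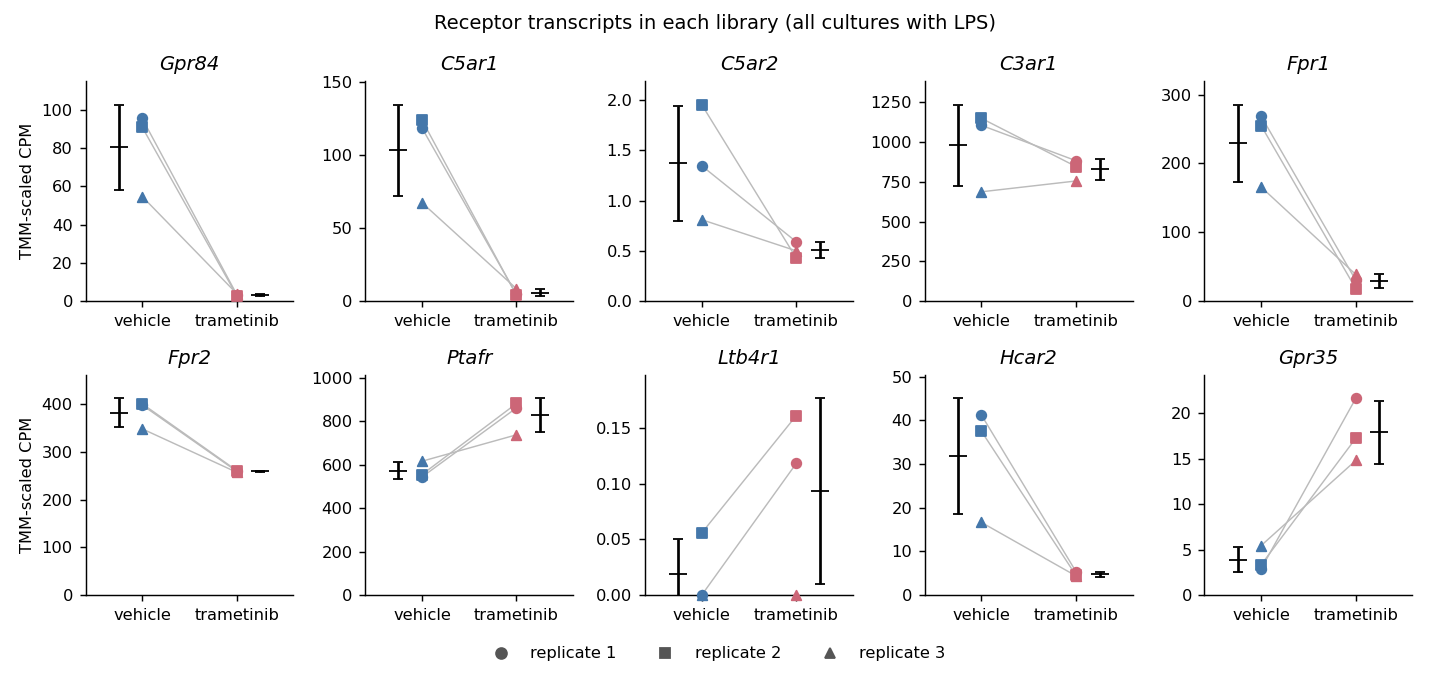
TMM-scaled CPM of the 10 receptors in each library; blue marks are vehicle and red marks trametinib libraries (all with LPS), shapes give the replicate number, grey lines join equal numbers, and black bars are the mean ± SD of 3 libraries. Gpr84, C5ar1, C5ar2, Fpr1, Fpr2 and Hcar2 are lower in every trametinib library than in any vehicle library, Ptafr and Gpr35 are higher, and C3ar1 and the near-zero Ltb4r1 overlap.

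In trametinib libraries transcripts of the main C5a receptor and the formyl peptide receptor Fpr1 were lower in CPM, a relative level. So were those of the fatty acid and ketone body receptors Gpr84 and Hcar2. Fpr2 and C5ar2 were lower by less, and Ptafr and Gpr35 were higher. The groups did not overlap in 8 of the 9 tested receptors, 6 lower and 2 higher with trametinib, where 49.3% of all 11286 genes tested had groups that did not overlap, 25.9% lower and 23.4% higher. Of the 7 tested receptors other than Gpr84 and C5ar1, 4 fell and 2 rose past an adjusted p of 0.05 and 1, C3ar1, did not pass, against 34.3% of all genes tested that were called in either direction, 18.4% lower and 15.8% higher. Of those 7, Fpr1 and Hcar2 fell at least 4-fold, as did 1.01% of all genes tested. Because Gpr84 and C5ar1 were picked by this comparison, and the others were listed with its results known, nothing is read from these counts. The number of genes called itself moved with single libraries, from 3869 to 2538 without vehicle replicate 1 and 2428 without trametinib replicate 1. It rose to 4663 without vehicle replicate 3. Those fits tested 11438, 11442 and 11442 genes.

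Among the anaphylatoxin receptors, C5ar1 (ENSMUSG00000049130, mm10 chromosome 7, 16246743 to 16259540, minus strand) stood at 118.7, 124.2 and 67.6 CPM in vehicle replicates 1, 2 and 3. In the trametinib libraries of the same numbers it stood at 4.67, 4.08 and 8.63 CPM. The lowest vehicle library, replicate 3, thus held 11.7 times the mean of the trametinib group, and the highest trametinib library was also replicate 3. The group means were 103.5 ± 31.2 and 5.79 ± 2.47 CPM (SD, n = 3 each), a ratio of 17.9, and the fitted log2 fold change was −4.16 (SE 0.39), the 15th lowest of all genes tested. Taken between libraries of equal number the log2 difference was −4.64, −4.89 and −2.95, and without vehicle replicate 3 the fitted value was −4.39.

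C5ar2 (ENSMUSG00000074361, chromosome 7, 16234585 to 16244154), the gene next to C5ar1 on the same strand, was a low transcript, with 24, 35 and 15 counts in the vehicle libraries and 10, 8 and 9 in the trametinib libraries. The groups did not overlap, although vehicle replicate 3 came within a few counts of the trametinib libraries. It fell from 1.37 ± 0.571 to 0.507 ± 0.0808 CPM, a log2 fold change of −1.42 (SE 0.39; edgeR adjusted p 0.0216). This call was lost without any single library other than vehicle replicate 3, where the adjusted p was 0.0561 and 0.0808 for leaving out vehicle replicate 1 or 2 and 0.0575, 0.0788 and 0.0566 for trametinib replicate 1, 2 or 3. Its lowest and highest adjusted p over all alternatives were 0.00300 and 0.0808. A small nuclear RNA gene annotated on the same strand covers 127 of its 3561 exon bases.

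C3ar1 (ENSMUSG00000040552, chromosome 6, 122847138 to 122856161, minus strand), whose ligand C3a is cut from complement C3, was far more abundant. It stood at 1104, 1148 and 686.9 CPM in vehicle replicates 1, 2 and 3 and at 881.9, 845.4 and 754.7 CPM in trametinib replicates 1, 2 and 3. Vehicle replicate 3 was the lowest of all 6 libraries, below every trametinib library, and vehicle replicates 1 and 2 were above all of them. The mean was 979.4 ± 254 CPM in vehicle and 827.3 ± 65.5 CPM in trametinib libraries, and the difference did not pass (log2 fold change −0.24, SE 0.19, edgeR adjusted p 0.357). Without vehicle replicate 3 it passed, with a log2 fold change of −0.44 and an adjusted p of 0.00193, which was the lowest of all alternatives (the highest was 0.717).

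The balance among these receptors was compared per length, as RPKM (CPM per kilobase of exon union). The ratio of C3ar1 to C5ar1 was 5.55, 5.52 and 6.07 in the vehicle libraries and 113, 124 and 52.2 in the trametinib libraries. It was nearly the same in all 3 vehicle libraries, replicate 3 included, although the level of each gene was lower there. C5ar1 exceeded C5ar2 by a ratio of 122, 88.2 and 116 in vehicle and 10.95, 13.2 and 23.9 in trametinib libraries. These ratios rest on C5ar1, which was chosen for its fall, and carry no test.

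The formyl peptide receptors, neighbours on chromosome 17 that are read in opposite directions, were both lower with trametinib. Fpr1 (ENSMUSG00000045551, 17876471 to 17883940, minus strand) stood at 268.5, 254.7 and 165.7 CPM in vehicle replicates 1, 2 and 3. Under trametinib the same numbers stood at 30.6, 18.5 and 39.0 CPM. Every vehicle library was at least 4 times as high as any trametinib library, and replicate 3 was again the lowest of its group in vehicle and the highest in trametinib. Fpr1 fell from 229.7 ± 55.8 to 29.4 ± 10.3 CPM, a log2 fold change of −2.97 (SE 0.34; edgeR adjusted p 0.00207).

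Fpr2 (ENSMUSG00000052270, 17887824 to 17893952, plus strand) stood at 398.6, 401.1 and 348.6 CPM in vehicle and at 259.6, 261.2 and 257.5 CPM in trametinib replicates 1, 2 and 3. The trametinib libraries were within a few CPM of each other, and all lay below the lowest vehicle library. It fell from 382.7 ± 29.6 to 259.4 ± 1.84 CPM, a log2 fold change of −0.56 (SE 0.08; edgeR adjusted p 0.00128). Fpr3, a close relative whose exons overlap 48 of its 1296 exon bases, had 0 to 2 counts per library. Per length, Fpr2 exceeded Fpr1 by a ratio of 1.52, 1.61 and 2.15 in the vehicle libraries and 8.66, 14.4 and 6.75 in the trametinib libraries, so the ratio was higher in each trametinib library than in any vehicle library. The difference between the changes of both genes was not tested.

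The 2 receptors of lipid mediators among the 10 were Ptafr, which was higher with trametinib, and Ltb4r1, which had too few counts to be tested. Ptafr (ENSMUSG00000056529, chromosome 4, 132564067 to 132582683, plus strand) stood at 544.1, 555.4 and 616.8 CPM in vehicle replicates 1, 2 and 3 and at 862.6, 882.9 and 738.7 CPM in the trametinib libraries. Here vehicle replicate 3 was the highest of its group and trametinib replicate 3 the lowest, with a gap left between them. Ptafr rose from 572.1 ± 39.1 to 828.1 ± 78.1 CPM, a log2 fold change of 0.53 (SE 0.09; edgeR adjusted p 0.00301). Ltb4r1 (ENSMUSG00000046908, chromosome 14, 55765962 to 55768494) had 0, 1 and 0 counts in the vehicle libraries and 2, 3 and 0 in the trametinib libraries, which gives no ratio. Ltb4r2, the gene of the second leukotriene B4 receptor, did not pass the filter either.

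Among the metabolite receptors, Gpr84 (ENSMUSG00000063234, chromosome 15, 103308235 to 103310612, minus strand) stood at 95.4, 90.8 and 54.7 CPM in vehicle replicates 1, 2 and 3. The trametinib libraries held 3.55, 3.01 and 4.01 CPM. Vehicle replicate 3 was the lowest of its group and still 15.5 times the trametinib mean, and the trametinib libraries lay close together. The mean was 80.3 ± 22.3 against 3.52 ± 0.500 CPM, a ratio of 22.8, with a log2 fold change of −4.51 (SE 0.27), the 11th lowest of all genes tested, and −4.72 without vehicle replicate 3. An antisense gene, Gm49482, overlaps 681 of the 1725 exon bases of Gpr84, and with the strand setting of the counting not given in the sources used here, reads from both cannot be told apart.

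Hcar2 (ENSMUSG00000045502, chromosome 5, 123863570 to 123865499, minus strand) stood at 41.2, 37.5 and 16.6 CPM in vehicle and at 5.378, 4.512 and 4.397 CPM in trametinib replicates 1, 2 and 3. Vehicle replicate 3 was lower than the mean of the other vehicle libraries by a ratio of 2.37, the widest such gap among the tested receptors, and it was still 3.49 times the trametinib mean. Hcar2 fell from 31.8 ± 13.2 to 4.76 ± 0.536 CPM, a log2 fold change of −2.74 (SE 0.39; edgeR adjusted p 0.00413), and the log2 fold change was −3.05 without vehicle replicate 3.

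Gpr35 (ENSMUSG00000026271, chromosome 1, 92950865 to 92986391, plus strand) moved the other way. Its levels were 2.91, 3.35 and 5.45 CPM in the vehicle libraries and 21.6, 17.2 and 14.8 CPM in the trametinib libraries. The highest vehicle library and the lowest trametinib library both had the number 3, and they did not meet. Gpr35 rose from 3.91 ± 1.36 to 17.9 ± 3.46 CPM, a log2 fold change of 2.19 (SE 0.24; edgeR adjusted p 0.000789). Reads behind these values were few in vehicle, with 52, 60 and 101 counts, against 366, 321 and 266 with trametinib.

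**Figure D2:**
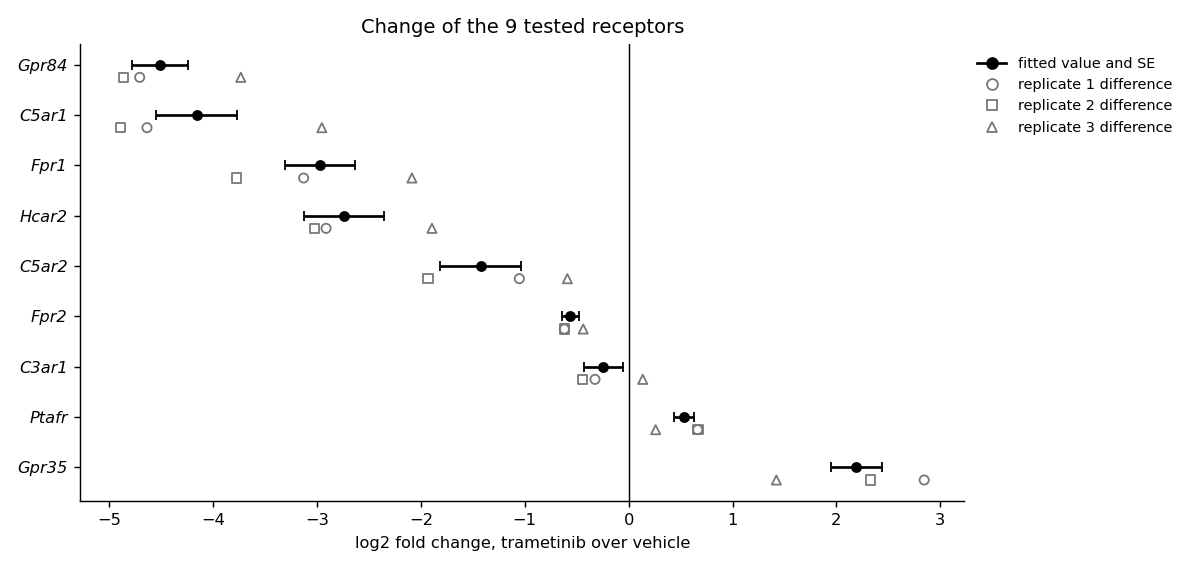
Fitted log2 fold change, trametinib over vehicle, with its SE (black, 3 libraries per group) for the 9 tested receptors, and the difference between libraries of the same replicate number (open marks). The values run from −4.51 for Gpr84 to 2.19 for Gpr35, and the replicate 3 difference is the one nearest to 0 for every receptor, with the opposite sign for C3ar1.

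The libraries numbered 3 gave the smallest difference for each of the 9 tested receptors. For Gpr84 the log2 differences by number were −4.71, −4.87 and −3.73, for Fpr1 −3.13, −3.77 and −2.09, for Hcar2 −2.91, −3.02 and −1.89, and for Gpr35 2.85, 2.33 and 1.42. All 3 had the sign of the fitted value in each of the 8 receptors whose groups did not overlap. That sign follows from the lack of overlap and is no further evidence. For C3ar1 the log2 differences by number were −0.32, −0.44 and 0.14. With the replicate number as a block no call among the tested receptors changed.

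Levels were next ordered per length. In vehicle libraries the order of mean RPKM was Fpr2 (295.3 ± 22.8), C3ar1 (227.5 ± 59.1), Fpr1 (173 ± 42.1), Ptafr (157 ± 10.8), Gpr84 (46.5 ± 12.9), C5ar1 (40.3 ± 12.2), Hcar2 (16.5 ± 6.86), Gpr35 (0.807 ± 0.281), C5ar2 (0.384 ± 0.160) and Ltb4r1 (0.0133 ± 0.0231). The ranges over libraries of C3ar1 and Fpr1, of Fpr1 and Ptafr, and of Gpr84 and C5ar1 overlapped, so these neighbours are not told apart beyond their spread. No other pair of neighbours overlapped, and without vehicle replicate 3, a check added after the data were seen, the ranges of all neighbours were apart in the same order.

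With trametinib the order was Ptafr (228 ± 21.5 RPKM), Fpr2 (200.2 ± 1.42), C3ar1 (192 ± 15.2), Fpr1 (22.2 ± 7.76), Gpr35 (3.70 ± 0.715), Hcar2 (2.47 ± 0.278), C5ar1 (2.25 ± 0.962), Gpr84 (2.04 ± 0.290), C5ar2 (0.142 ± 0.0227) and Ltb4r1 (0.0668 ± 0.0599). Fpr2 and C3ar1 overlapped, as did Hcar2 with C5ar1 and C5ar1 with Gpr84. By mean RPKM, Ptafr thus went from 4th to 1st place and Gpr35 from 8th to 5th. Receptors that were not neighbours in the order could overlap too. In trametinib replicate 3 C5ar1 (3.36 RPKM) was above Gpr35 (3.06 RPKM), so the place of Gpr35 did not hold in every library. In vehicle replicate 3 Ptafr (169.6 RPKM) was above C3ar1 (159.6 RPKM). The first place with trametinib is not settled by these data. With the longest transcript as the length of each gene, Fpr2 stood at 229 RPKM and Ptafr at 228 RPKM. Summed over the 10 receptors the level was 1040, 1043 and 791.2 RPKM in the vehicle libraries and 676.8, 664.1 and 617.7 RPKM in the trametinib libraries. Fpr1 made up 19.5%, 18.4% and 15.8% of that sum in vehicle and 3.42%, 2.11% and 4.76% with trametinib, while Ptafr made up 14.4%, 14.6% and 21.4% in vehicle and 35.0%, 36.5% and 32.9% with trametinib.

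**Figure D3:**
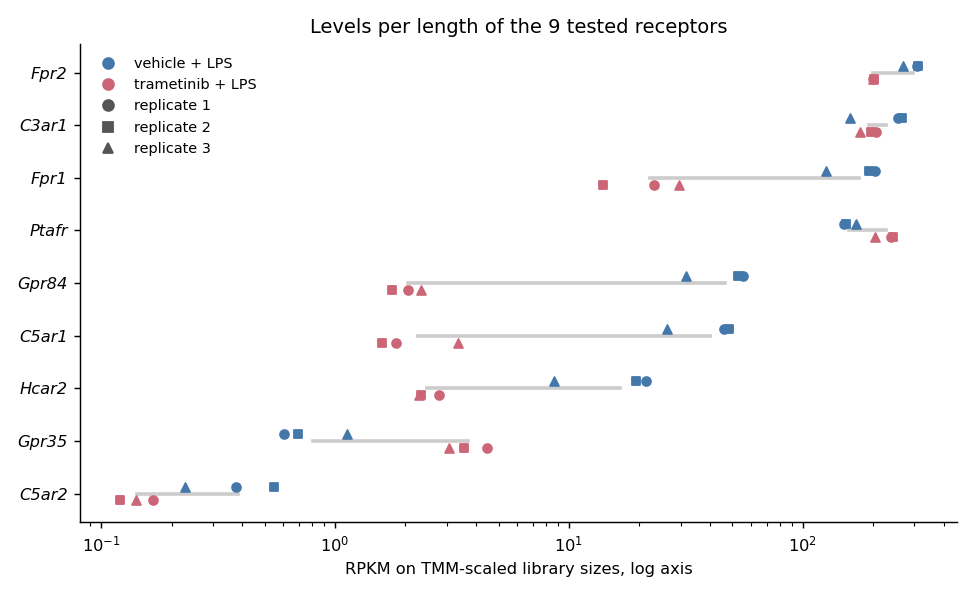
RPKM of the 9 tested receptors in each library on a log axis, ordered by their vehicle mean; blue marks are vehicle and red marks trametinib libraries, shapes give the replicate number, and grey lines join the group means of 3 libraries. Ptafr, Fpr2 and C3ar1 are the highest with trametinib, at 192 to 228 RPKM, while Fpr1, Gpr84, C5ar1 and Hcar2 drop to between 2.04 and 22.2 RPKM.

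Genes with the pattern most like that of Gpr84 or C5ar1 were sought by the root mean square difference between log2 CPM values. Each value was centred on its gene's own mean over the 6 libraries. The search covered 8584 tested genes with a mean of at least 5 CPM, leaving out those with predicted-gene or clone names. Nearest to Gpr84 were C5ar1 itself (0.27), the ERK phosphatase gene Dusp4 (0.36), the sialic acid-binding receptor gene Cd33 (0.39) and the neutrophil-attracting chemokine gene Cxcl2 (0.41). For C5ar1 the nearest were Cxcl2 (0.15), Gpr84 (0.27), Dusp4 (0.34) and Siglece (0.36), another sialic acid-binding receptor gene. Gpr84 and C5ar1 were both chosen for their falls in these same libraries. Their nearness to each other, and to genes with a like fall, follows largely from that choice and carries no test. Cxcl2 stood at 55.0, 62.4 and 34.0 CPM in vehicle and at 2.48, 1.88 and 5.45 CPM in trametinib replicates 1, 2 and 3, so its lowest vehicle and highest trametinib library were those of C5ar1. Siglece, at 99.7, 89.5 and 91.8 CPM in vehicle libraries, was not low in vehicle replicate 3. Over the 5 libraries without vehicle replicate 3, a check added after the data were seen, Dusp4 (0.2786) came before C5ar1 (0.2798) as nearest to Gpr84, Msr1 (0.32) took the place of Cxcl2 near it, and Slco4a1 (0.30) that of Siglece near C5ar1.

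Of 41 other receptors for chemoattractants, lipid mediators, protons and metabolites, 20 were tested, and 6 rose, 5 fell and 9 did not pass, with a median log2 fold change of 0.12 against −0.0053 over all genes tested. Over all genes tested 15.8% were called higher and 18.4% lower, 34.3% in all. Ccrl2, a receptor that presents the chemoattractant chemerin, rose from 536.7 ± 42.2 to 873.8 ± 76.1 CPM, a log2 fold change of 0.70 (SE 0.09; edgeR adjusted p 0.000917). The sphingosine-1-phosphate receptor gene S1pr2 rose from 240.0 ± 10.2 to 331.0 ± 22.7 CPM (adjusted p 0.00311) and the prostacyclin receptor gene Ptgir from 55.3 ± 4.72 to 74.1 ± 3.74 CPM (adjusted p 0.00434). Lpar6, a lysophosphatidic acid receptor gene, rose from 9.05 ± 0.339 to 16.9 ± 3.22 CPM (adjusted p 0.00175). Ptger2, which encodes a prostaglandin E2 receptor, fell from 8.12 ± 2.62 to 1.74 ± 0.231 CPM, a log2 fold change of −2.22 (SE 0.28; edgeR adjusted p 0.000840).

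The other receptors of that list that fell, named after their values were seen, were S1pr1 (log2 fold change −2.43, edgeR adjusted p 0.00228), Gpr18 (−1.51, adjusted p 0.0218), the leukotriene receptor gene Cysltr1 (−0.58, adjusted p 0.00617) and the chemerin receptor gene Cmklr1 (−0.48, adjusted p 0.0491). The groups of Cmklr1 overlapped, with trametinib replicate 1 at 33.6 CPM and vehicle replicate 3 at 32.2 CPM. Gpr55, also named after its value was seen, had the largest rise of the list (log2 fold change 1.53, edgeR adjusted p 0.00305). Receptors that fell numbered 3 without vehicle replicate 1 and 3 with no filter on low counts. Gpr132, a receptor of lysolipids and protons, rose from 29.3 ± 12.0 to 56.5 ± 1.53 CPM (adjusted p 0.0400), a call that was lost without any one of 5 libraries (0.121 and 0.0675 when vehicle replicate 1 or 2 was left out, and 0.0973, 0.102 and 0.0988 when trametinib replicate 1, 2 or 3 was) and with no filter on low counts (0.129, the highest over its alternatives). The free fatty acid receptors Ffar1 to Ffar4, the succinate receptor Sucnr1 and the Fpr relatives Fpr-rs3, Fpr-rs4, Fpr-rs6 and Fpr-rs7 were among the 21 not tested for low counts.

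Of 34 listed genes that make, release or remove the ligands, 26 were tested, and 7 rose, 6 fell and 13 did not pass (median log2 fold change −0.0011), where 15.8% of all genes tested were called higher and 18.4% lower. C3, the source of C3a, rose from 1687 ± 505 to 3594 ± 289 CPM, a log2 fold change of 1.09 (SE 0.20; edgeR adjusted p 0.00668), while Hc, the gene of C5, was too low to be tested. Cpd, a carboxypeptidase gene, fell from 993.8 ± 113 to 429.0 ± 16.7 CPM (adjusted p 0.000178). Pla2g4a, the phospholipase that releases arachidonic acid and the precursor of platelet-activating factor, fell from 57.4 ± 6.88 to 30.8 ± 1.23 CPM (adjusted p 0.000447). Pla2g7, which breaks down platelet-activating factor, fell from 641.4 ± 15.4 to 520.3 ± 15.4 CPM (adjusted p 0.0101, and 0.0514 and 0.0593 without vehicle replicate 2 and trametinib replicate 1, the highest over its alternatives). Pafah1b3, of the same function inside cells, rose from 5.69 ± 0.239 to 10.6 ± 0.732 CPM (adjusted p 0.000683). Saa3, an acute-phase gene of a family with Fpr2 ligands, stood at 5444 ± 280 and 6078 ± 863 CPM and did not pass (adjusted p 0.276); it passed without trametinib replicate 3 (adjusted p 0.0247, the lowest over its alternatives).

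Of 30 genes of the signal relay behind the receptors, 27 were tested, and 10 fell, 6 rose and 11 did not pass (median log2 fold change −0.13), against 18.4% called lower and 15.8% higher over all genes tested. Pik3cg, the catalytic subunit of PI3K gamma, fell from 111 ± 12.1 to 19.4 ± 6.45 CPM, a log2 fold change of −2.52 (SE 0.23; edgeR adjusted p 0.000699). Its regulatory partner Pik3r5 rose from 673.1 ± 37.6 to 819.6 ± 65.4 CPM (adjusted p 0.0304), a call that was lost without vehicle replicates 1 and 2 (0.0889 and 0.125) and trametinib replicates 1 and 2 (0.135, the highest over its alternatives, and 0.0539). Elmo1, a partner of DOCK proteins in Rac activation, fell from 28.5 ± 2.22 to 7.85 ± 1.52 CPM (adjusted p 0.000137). Gnaq, an alpha subunit gene of the Gq class, fell from 125 ± 12.2 to 80.5 ± 2.53 CPM (adjusted p 0.000750), whereas Gnai2, the most abundant Gi alpha subunit transcript of the list in CPM, stood at 615.4 ± 53.3 and 583.9 ± 28.4 CPM (adjusted p 0.528). Prex1, a Rac activator driven by G protein beta-gamma subunits, rose from 483.5 ± 13.4 to 613.7 ± 14.6 CPM (adjusted p 0.00562). Prkcd, a protein kinase C gene, rose from 620.3 ± 58.2 to 755.7 ± 5.58 CPM (adjusted p 0.0284), and this too was lost without the same 4 libraries (0.123, 0.117, 0.0880 and 0.0844, of which 0.123 was the highest over its alternatives).

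Among 22 genes that turn receptors or G proteins off or modulate them, 20 were tested, and 6 fell, 2 rose and 12 did not pass (median log2 fold change −0.18), beside 34.3% of all genes tested that were called, 18.4% lower and 15.8% higher. Rgs1, which speeds the switching off of Gi and Gq, fell from 183 ± 0.211 to 81.6 ± 11.4 CPM, a log2 fold change of −1.16 (SE 0.10; edgeR adjusted p 0.000220). Arrb2, an arrestin gene that uncouples activated receptors, fell from 157 ± 23.8 to 76.4 ± 4.70 CPM (adjusted p 0.000459), and Rgs19 fell from 56.8 ± 7.98 to 33.6 ± 0.875 CPM (adjusted p 0.00105). Arrb1, the related arrestin gene, stood at 86.0 ± 18.5 and 70.0 ± 15.9 CPM and did not pass (adjusted p 0.307), but passed with the replicate block (0.00522, the lowest over its alternatives). Grk2, a kinase that marks active receptors for arrestins, fell from 345.5 ± 15.6 to 292.3 ± 14.6 CPM (adjusted p 0.0398), a call that was lost when vehicle replicate 1 or 2 (0.141, the highest over its alternatives, and 0.127) or trametinib replicate 1 or 2 (0.0950 and 0.126) was left out, and with no low-count filter (0.0572). With the replicate block 10 genes of the list fell, and without vehicle replicate 3 there were 4 that rose.

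**Figure D4:**
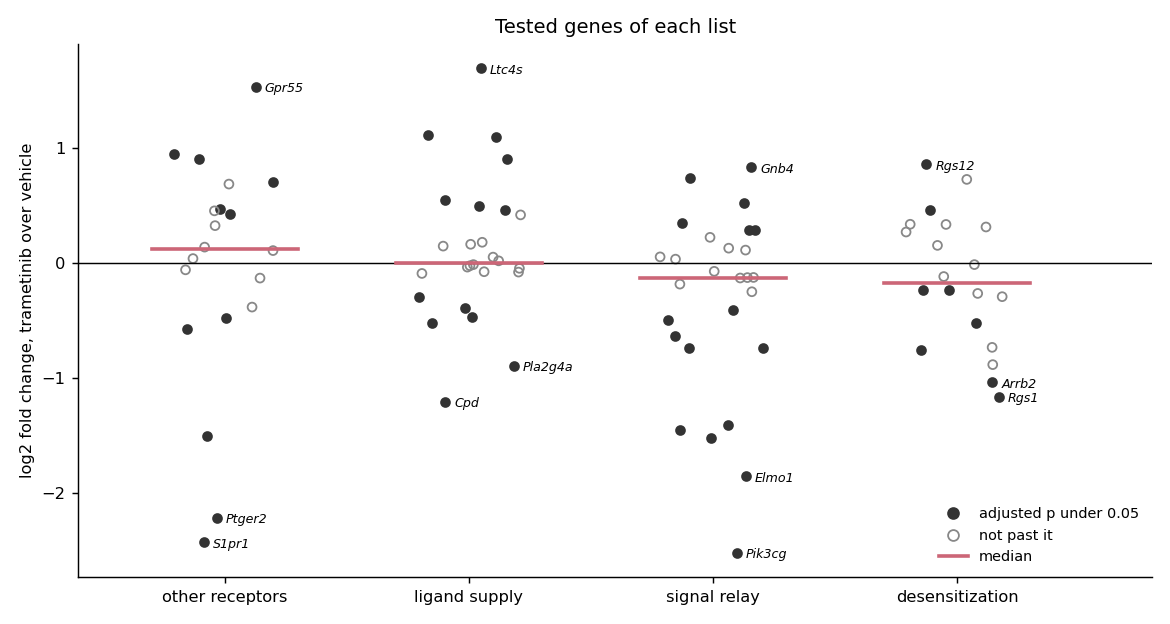
Log2 fold change, trametinib over vehicle, of the tested genes in 4 lists: other receptors (20 genes), ligand supply (26), signal relay (27) and desensitization (20); filled marks passed an adjusted p of 0.05 in the edgeR test, open marks did not, and red bars are the medians. The medians lie between −0.18 and 0.12, and each list holds genes that passed in both directions, as do all genes tested (15.8% higher and 18.4% lower).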

How the data were processed

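RNA of 6 macrophage cultures was sequenced after removal of ribosomal RNA, 3 with vehicle and LPS and 3 with trametinib and LPS. The authors deposited raw counts, whole numbers of reads per library and gene without normalization. HISAT2 2.1.0, featureCounts 1.6.4, DESeq2 1.24.0, R 3.6.0 and the mm10 build were used, per the submitters' processing notes; the sources used here name no annotation, strand setting or handling of multi-mapped reads. Removing 310 repeated entries left 25044 genes, 25033 of them in GENCODE M21, which gave symbols, positions and exon lengths.

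Library totals were 17453778 to 19648467 counts. Genes were kept by filterByExpr (11286), scaled by TMM and tested in edgeR 4.0.16 by its quasi-likelihood method (robust, group only, 4 residual degrees of freedom), with Benjamini-Hochberg adjustment over all genes and a threshold of 0.05. Each SE is |log2 fold change| over the root of the F statistic. Libraries are not tied to mice, so p-values measure only how these samples vary, which may be technical. Data were also simulated for this comparison over 11286 genes. The fit recovered 28 of 59 genes with a 1.5-fold change, 31 of 41 with a 2-fold change and 49 of 51 with a 4-fold change. Of 11086 genes left unchanged, 10 were called. The simulation changed 200 genes, where 3869 were called in the data. It drew libraries independently, with no replicate effect and no outlying library, so these rates may not hold for the data. Deviations from the group means correlated at 0.339, 0.393 and 0.285 between libraries of equal number. Between libraries of different number the values ran from −0.223 to −0.0724, and centring on means of 3 libraries pushes such values to be negative. The labels state no pairing, and 3 libraries per group are too few for this check to settle it. A fit with the number as a block was an alternative.

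Members and lists were chosen with earlier results of these data known. Genes named are the 10 receptors, the 4 nearest patterns to Gpr84 and to C5ar1, and from each of 4 lists the 4 tested genes of highest mean CPM and the 3 of smallest p; exceptions are marked. The 9 marker lists had no test. Those other than macrophages and neutrophils were large peritoneal macrophages, lymphoid B, T and NK cells, dendritic cells, mast cells, eosinophils, and fibroblasts with mesothelium. Their summed levels were at most 567 CPM for large peritoneal macrophages (560 CPM of it Cd5l) and at most 30.1 CPM for the others. The low-count filter left 5 large peritoneal macrophage markers, 1 marker in each of the other lists, and none for fibroblasts with mesothelium. No tested marker of these lists was called in either direction. With so few tested, this cannot show whether these cell types differed between the groups. R 4.3.3, limma 3.58.1, DESeq2 1.42.0, Python 3.11.15 and matplotlib 3.10.9 were used.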

Additional observations from a re-analysis of the deposited data

How the results depend on the processing

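The alternatives were DESeq2 size factors in edgeR, TMM computed after removing mitochondrial genes and the top 10 by abundance, no low-count filter, a filter of 1 CPM in 3 libraries, limma-voom, DESeq2, the replicate block, and each library left out in turn. Of 116 values for the 9 tested receptors none changed direction, 110 stayed on their side of the threshold (or, for Gpr84 and C5ar1, within the spread of replicates), 5 lost the call (all C5ar2) and 1 gained it (C3ar1); C5ar2 gave no value with the filter at 1 CPM. The calls among the 8 receptors other than Gpr84 and C5ar1 numbered 5 to 7 with single libraries left out. Genes changed numbered 2428 to 4663 in those fits (1068 to 2210 higher, 1360 to 2453 lower). Other receptors that fell numbered 3 to 5 with single libraries left out and 3 with no filter, and genes of desensitization that rose numbered 2 to 4. With the replicate block, 10 genes of desensitization fell and the other counts stayed within 1.5 times the main ones; besides the gain of Arrb1 it changed no other call among the tested receptors and the 28 other genes named by the rule (S1pr1, Gpr18, Cysltr1, Cmklr1 and Gpr55 were not refitted singly), and in total 4836 genes changed. The level of Fpr2 moved beyond its spread to 253.8 CPM with trametinib on raw library totals, and to 338 RPKM in vehicle and 229 RPKM with trametinib on the longest transcript, which is shorter than its exon union. Other causes were not tested. Low counts limit C5ar2 and Ltb4r1.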
